A study of Mus musculus with 16 samples.

Results

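The expression of 10 genes of primitive blood formation was followed in differentiating mouse embryonic stem cells (mESCs) treated with a hawthorn extract or a fraction of it. They were chosen by name, and comprised the embryonic globins Hbb-bh1, Hbb-y and Hba-x, the erythroid factors Gata1 and Klf1, and the blood progenitor factors Gata2, Tal1, Lmo2, Runx1 and Lyl1. The array held 14 probes for these 10 genes among 60273 gene probes, and every member had a probe that could be tested, among 30977 such genes of 47251 on the array. Of the 14 probes, 2 carried the gene's name in the scanner files and 12 were named through their transcript accession.

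The cells were CGR8-Myh6-GFP mESCs, a single mESC line that carries green fluorescent protein under the promoter of Myh6, a gene of heart muscle, and that was set on the way to cardiomyocytes. All cultures shared this line and protocol, and from day 4 of differentiation they received the vehicle DMSO, 0.25 mg/ml of WS1442, a hawthorn extract, or 0.1 mg/ml of MeOH eluate, a fraction of WS1442 rich in oligomeric procyanidins. RNA was taken after 6 h and after 24 h, with 2 DMSO, 3 WS1442 and 3 MeOH eluate samples at each time, which gives 16 samples on 16 one-colour arrays. The doses of the extract and the fraction differed. Nothing in the labels says that samples of a group came from separate experiments, so that p-values measure the spread between these samples, which may be technical.

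In the embryo, the first red blood cells form in the yolk sac from mesoderm that gives rise to blood and to vessel lining. TAL1 and LMO2 act there in a complex on DNA, together with a GATA factor, and are needed for the earliest blood cells. GATA1 and KLF1 then drive the erythroid genes, and primitive red cells make the embryonic globins. RUNX1 is needed for definitive blood, which follows later, and GATA2 acts in blood progenitors. LYL1 is a close relative of TAL1. The study asked how the extract and its fraction act on cardiac differentiation, which also starts from mesoderm, and the comparisons here show how the blood genes stood in those cultures.

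On the arrays, a Cy3-labelled copy of the RNA is bound by the probes, and the brightness of a spot measures the amount of transcript in arbitrary units. Values are given as log2 intensity after quantile normalization over the 16 arrays, which gives all arrays the same distribution. Differences are therefore log2 differences, for which 1 means a doubling. A gene was called changed at an adjusted p under 0.05 in limma, adjusted over all 36729 probes tested, and was read at its brightest probe. Between 55.1% and 63.0% of the 61473 gene spots per array were well above background, the scanner's test against local background, and no spot was saturated. RNA integrity numbers lay between 8.6 and 10. A separate slide carried the 8 arrays of each time, which means that time and slide cannot be told apart. The treatments at a time point share the same 2 DMSO samples. In such bulk RNA, fewer cells of a type and less RNA per cell cannot be told apart.

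Genes of several cell types were detected. All 9 genes of a pluripotency list and all 8 of a primitive streak and mesoderm list were well above background on all 16 arrays, as were 14 of 17 genes of blood and endothelial precursors. In contrast, Myb, needed for definitive blood progenitors, Epb42, a protein of the red cell membrane, Hbb-bh2, and the platelet genes Pf4 and Gp9 were well above background on none. Alas2, the erythroid enzyme of heme synthesis, and Mpo, a granulocyte enzyme, did not pass the filter on dim probes. Of the 10 members, 9 were well above background on all 16 arrays and Hbb-bh1 on 14.

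The probes that the results turn on are shown by the first 30 bases of each, as the scanner files give them, because genes with several probes gave different readings. The probes are between 45 and 55 bases long.

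Tal1 probe 1: atccttttgtagtatggacaaataccccat
Tal1 probe 2: gcctataggccaacactgcgggcgtgtgac
Lmo2: cttcattttgaggtgaggcgccccacagat
Gata2: cttcttttctgctaaaccctcggccccctc
Hbb-bh1 probe 1: actccattccagtacactggcaatcccatg
Hbb-bh1 probe 2: gggtttgattctgagcattggaaactaagc

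Tal1 probe 1 was designed on transcript NM_011527 and probe 2 on NM_001287388. On GRCm38.p6, the RefSeq table places Tal1 at chr4:115056426-115071755, Lmo2 at chr2:103957903-103981878 and Gata2 at chr6:88193891-88207032. The embryonic beta-like globins are neighbours, Hbb-bh1 at chr7:103841638-103843162 and Hbb-y at chr7:103851754-103853207. Where a probe lies within its transcript was not determined.

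RefSeq promoter windows, of which the 250 bases before the transcription start were used, existed for 8 of the 10 genes, with 11 starts in all. They were searched on both strands for GATAA, the core that GATA factors bind. It occurred in 4 of the 11 windows, and in 22.6% of 32851 windows of that length over all genes. These 4 windows are printed 5′ to 3′ on the strand of the gene, ending at the base before the start, with GATAA or its reverse complement in capitals.

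Hbb-y, chr7:103853208-103853457, minus strand: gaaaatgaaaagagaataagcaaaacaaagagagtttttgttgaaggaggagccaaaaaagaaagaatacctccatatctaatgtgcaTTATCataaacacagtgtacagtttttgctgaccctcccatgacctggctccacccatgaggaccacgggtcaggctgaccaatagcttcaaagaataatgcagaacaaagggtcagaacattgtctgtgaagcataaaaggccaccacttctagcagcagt
Hba-x, chr11:32276350-32276599, plus strand: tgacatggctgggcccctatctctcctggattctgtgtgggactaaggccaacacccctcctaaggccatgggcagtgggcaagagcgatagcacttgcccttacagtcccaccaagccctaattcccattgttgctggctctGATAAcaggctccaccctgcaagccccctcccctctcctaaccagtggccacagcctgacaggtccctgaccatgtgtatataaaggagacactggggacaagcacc
Klf1, chr8:84901732-84901981, plus strand: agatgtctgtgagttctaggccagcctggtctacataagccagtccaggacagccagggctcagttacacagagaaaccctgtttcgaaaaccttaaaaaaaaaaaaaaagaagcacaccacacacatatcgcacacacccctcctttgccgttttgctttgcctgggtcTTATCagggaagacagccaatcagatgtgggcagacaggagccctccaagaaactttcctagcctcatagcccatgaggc
Tal1, chr4:115056176-115056425, plus strand: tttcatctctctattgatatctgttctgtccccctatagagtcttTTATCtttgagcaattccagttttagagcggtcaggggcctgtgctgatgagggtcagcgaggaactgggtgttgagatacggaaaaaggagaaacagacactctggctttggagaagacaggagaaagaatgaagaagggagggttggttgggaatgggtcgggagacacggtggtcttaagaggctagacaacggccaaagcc

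The match began 162 bases before the start in Hbb-y, 107 in Hba-x, 80 in Klf1 and 205 in Tal1. CCNCNCCC, a pattern that KLF1 can bind, occurred in 8 of the 11 windows and in 45.9% of all windows. The E-box letters CANNTG, bound by TAL1 and LYL1 with their partners, occurred in 5 of 11 and in 66.2% of all. A match is a string of letters and does not show that a factor binds.

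**Figure D1:**
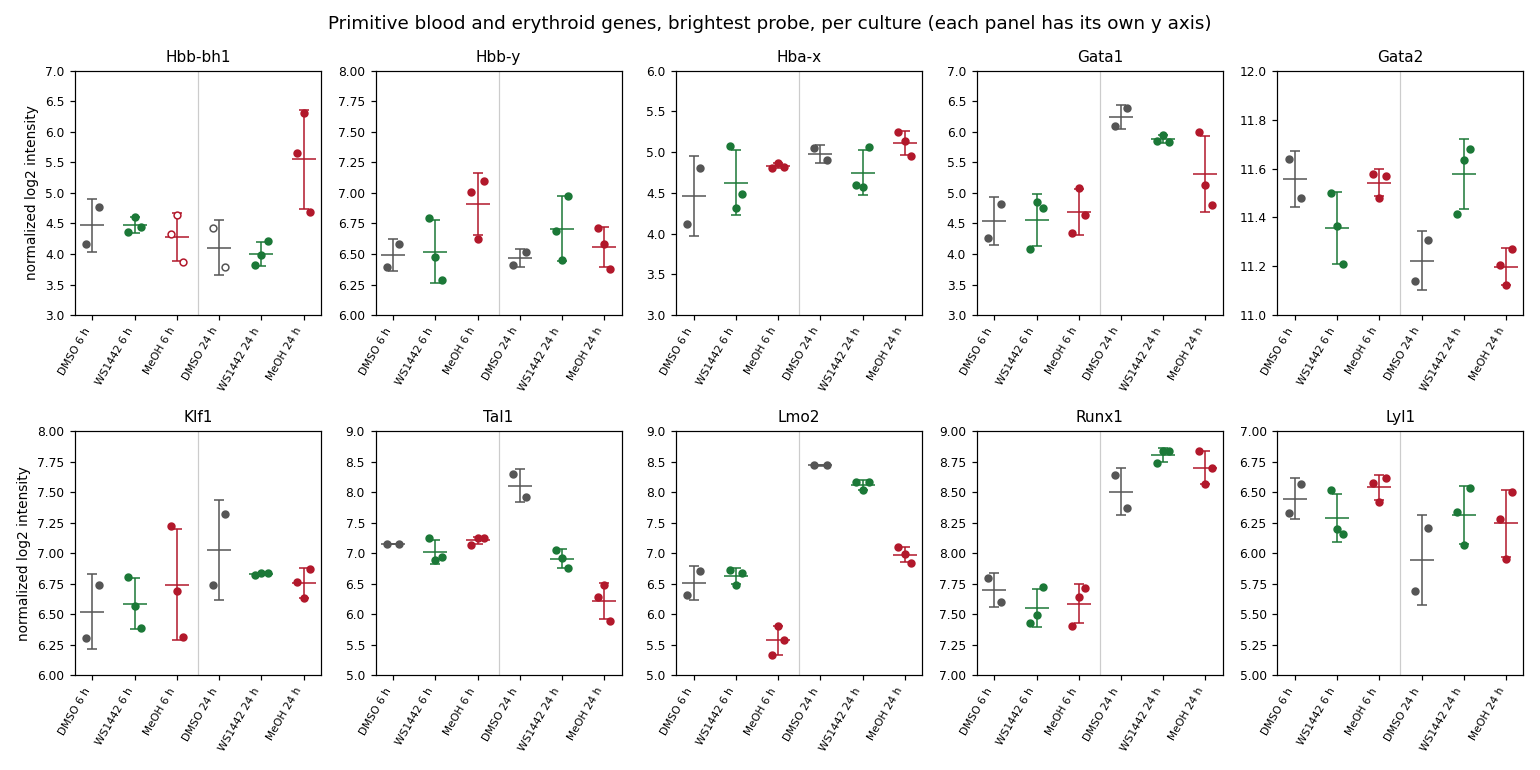
Normalized log2 intensity (y axis) of the 10 genes at the brightest probe, in each of the 16 samples by group (x axis). Points are samples, bars the mean ± SD (n = 2 with DMSO, n = 3 with each treatment), open points a group in which not every array was well above background. At 24 h, Tal1 fell from DMSO through WS1442 to MeOH eluate, and Lmo2 was low with MeOH eluate at both times.

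Among the progenitor factors, Tal1 and Lmo2 were called lower than DMSO. After 24 h, Tal1 was 2.29-fold lower with WS1442 and 3.70-fold lower with MeOH eluate than with DMSO. Lmo2 was 2.76-fold lower with MeOH eluate at 24 h and had already been 1.92-fold lower at 6 h, whereas its difference with WS1442 was not called at either time. Gata2 was 1.28-fold higher with WS1442 at 24 h. The globin Hbb-bh1 was 2.73-fold higher with MeOH eluate at 24 h, on a dim probe that was well above background on 1 of 2 DMSO arrays. The other 6 genes, Hbb-y, Hba-x, Gata1, Klf1, Runx1 and Lyl1, were not called against DMSO with either treatment at either time.

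After 6 h of WS1442, 0 of the 10 genes were called by limma, where 5.11% of all genes tested were. At an unadjusted p under 0.05 it was 1 gene, Gata2, and the methods' t-test gave 0 at that limit. The share of all genes at that limit was not computed, so that this count cannot be weighed. After 6 h of MeOH eluate 1 of 10 was called, against 16.9% of all genes. At 24 h it was 2 of 10 with WS1442, against 24.5% of all genes, and 3 of 10 with MeOH eluate, against 17.8%. The median difference over the 10 genes lay between -0.15 and 0.08 in these 4 comparisons, beside -0.01 to 0.02 over all probes. At the limits of the study, a change of more than 2-fold with an unadjusted p under 0.05, limma gave 0 and 0 genes at 6 h (0.436% of all genes with WS1442, 2.1% with MeOH eluate). At 24 h it gave 1 gene with WS1442 (2.05%) and 3 with MeOH eluate (2.95%). The further condition of the study, a change with both treatments, was not applied.

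**Figure D2:**
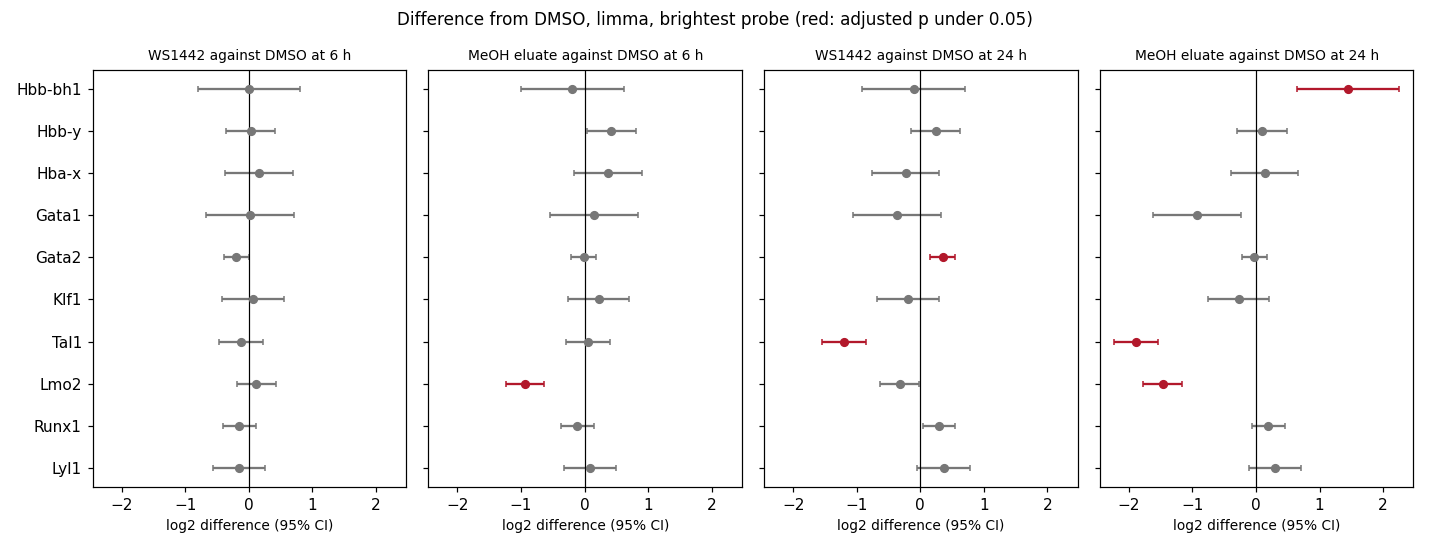
Log2 difference from the DMSO samples of the same time (x axis) for each gene (y axis) in the 4 comparisons, with the 95% confidence interval from limma, and in red the genes with adjusted p under 0.05. Lmo2 at 6 h, Tal1 and Gata2 with WS1442 at 24 h, and Tal1, Lmo2 and Hbb-bh1 with MeOH eluate at 24 h were called.

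Tal1, the basic helix-loop-helix factor that blood specification depends on, gave log2 intensities of 8.30 and 7.92 with DMSO at 24 h. With WS1442 they were 7.06, 6.92 and 6.76, and with MeOH eluate 6.28, 6.48 and 5.90. The 3 groups did not overlap, with DMSO highest and MeOH eluate lowest. The difference was -1.19 ± 0.16 (SE) for WS1442 (adjusted p = 0.000158) and -1.89 ± 0.16 for MeOH eluate (adjusted p = 1.93e-06). Over the alternative settings these differences ran from -1.39 to -0.89 and from -2.08 to -1.30. MeOH eluate lay below WS1442 by a further step of -0.69 ± 0.15 (adjusted p = 0.00626). With normexp background correction this step was -0.41 (adjusted p = 0.0120). That alternative replaces the scanner's background correction by a model of signal and background, and then adds a constant of 50 to every signal. The constant by itself makes log2 differences of dim probes smaller. At 6 h the levels had been 7.15 and 7.16 with DMSO, 7.25, 6.89 and 6.93 with WS1442, and 7.14, 7.25 and 7.24 with MeOH eluate. These groups overlapped, and the intervals of the differences from DMSO ran from -0.47 to 0.22 and from -0.29 to 0.41. The change in effect between the times was -1.07 ± 0.23 for WS1442 (adjusted p = 0.00991) and -1.95 ± 0.23 for MeOH eluate (adjusted p = 0.000106). In the WS1442 case it was not called without the first DMSO sample of 24 h (-0.88, adjusted p = 0.0590). With DMSO itself, Tal1 was 0.96 higher at 24 h than at 6 h, a comparison across slides. The WS1442 samples of 24 h overlapped the range of all samples at 6 h, 6.89 to 7.25, and the MeOH eluate samples lay below it.

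The other probe of Tal1 was dimmer, and its level should not be set against that of the first. With DMSO at 24 h it read 6.75 and 6.74, with WS1442 5.30, 5.03 and 5.37, and with MeOH eluate 4.45, 4.84 and 4.02. The order of the groups was that of probe 1, with differences from DMSO of -1.51 ± 0.32 (adjusted p = 0.00376) and -2.31 ± 0.32 (adjusted p = 0.000155). The step between the treatments, -0.80 ± 0.29, was not called here (adjusted p = 0.0842). At 6 h the probe was not well above background on either DMSO array, where it read 1.97 and 2.80, but it was on all 3 WS1442 arrays, at 4.09, 3.42 and 4.25, and on 1 of 3 MeOH eluate arrays, which read 3.48, 3.87 and 3.14. The 6 h level of DMSO was thus not measured, and that of MeOH eluate was measured on 1 array. Both treatments were still called higher than DMSO at 6 h by limma, which was not so at probe 1. For MeOH eluate the adjusted p was 0.0302. The call for WS1442 (adjusted p = 0.0162) was lost without the first DMSO sample of 6 h (adjusted p = 0.269) and with normexp background correction (0.19, adjusted p = 0.151), and no fold is given. With that correction the 24 h differences were -0.79 for WS1442 and -1.05 for MeOH eluate, still called (adjusted p = 8.27e-06 and 2.08e-07). In the DMSO samples, the reading at 24 h was higher than at 6 h. The fold was 11.2 with the 6 h readings raised to the lowest signal well above background on their arrays. That signal is no strict limit, since a probe can read above it without being well above background. With normexp the difference was 1.37.

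**Figure D3:**
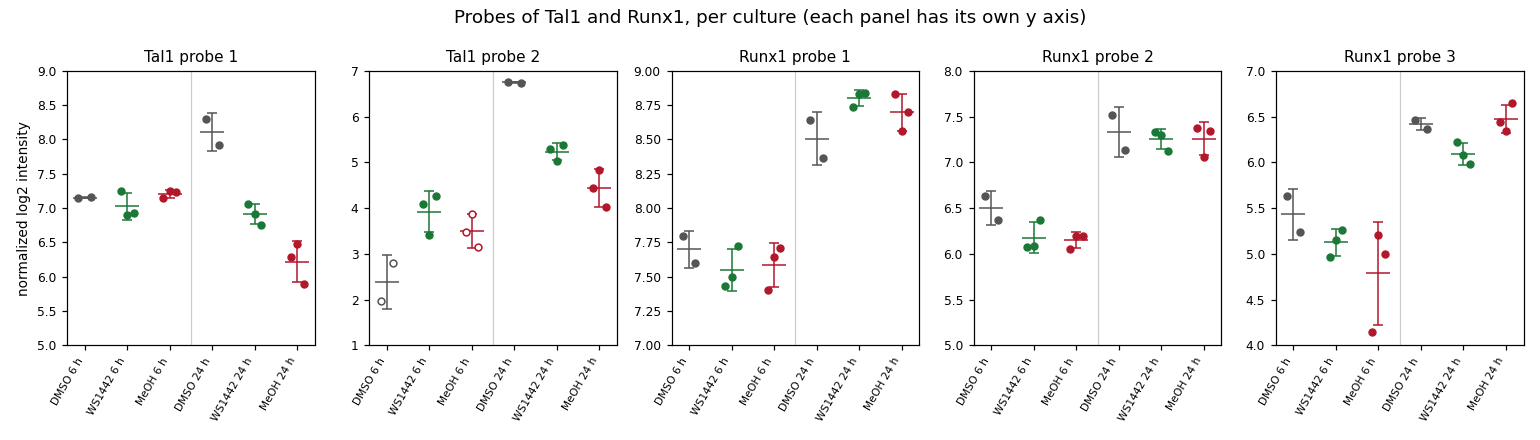
Normalized log2 intensity (y axis) at the 2 probes of Tal1 and the 3 of Runx1, per sample and group (x axis), with mean ± SD (n = 2 with DMSO, n = 3 with each treatment) and open points where not every array of a group was well above background. Both Tal1 probes were lower with treatment than with DMSO at 24 h, and the Runx1 probes did not order the treatments alike.

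Lmo2 encodes a bridging protein that joins TAL1 to GATA factors. At 6 h its log2 intensities were 6.31 and 6.71 with DMSO and 6.72, 6.48 and 6.68 with WS1442, but 5.33, 5.81 and 5.57 with MeOH eluate. At 24 h they were 8.45 and 8.44 with DMSO, 8.16, 8.03 and 8.17 with WS1442, and 7.09, 6.99 and 6.84 with MeOH eluate. MeOH eluate was the lowest group at both times and overlapped no other. Its difference from DMSO was -0.94 ± 0.14 at 6 h (adjusted p = 0.000502) and -1.46 ± 0.14 at 24 h (adjusted p = 5.99e-06), and that from WS1442 was -1.05 ± 0.13 and -1.14 ± 0.13 (adjusted p = 0.000236 and 0.000131). The differences at 6 h were smaller with normexp, -0.53 from DMSO and -0.58 from WS1442, and still called (adjusted p = 0.00115 and 0.000583). The effect of MeOH eluate did not pass the test for a change between the times (-0.53 ± 0.20, adjusted p = 0.143). With WS1442 at 24 h, all 3 samples lay below both DMSO samples, and the difference of -0.32 ± 0.14 was not called (adjusted p = 0.121). It was called where only the 8 arrays of 24 h were fitted (adjusted p = 0.0286) and with another background correction (-0.29, adjusted p = 0.0319).

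Gata2 moved less. With WS1442 at 24 h it read 11.42, 11.64 and 11.68, above the 11.14 and 11.31 with DMSO and the 11.20, 11.12 and 11.27 with MeOH eluate. The difference from DMSO was 0.35 ± 0.09 (adjusted p = 0.0122) and that of MeOH eluate from WS1442 was -0.38 ± 0.08 (adjusted p = 0.00765). MeOH eluate itself differed from DMSO by -0.02, with an interval from -0.22 to 0.17. At 6 h the WS1442 samples had read 11.50, 11.37 and 11.21, and the DMSO samples 11.64 and 11.48. The effect of WS1442 changed by 0.55 ± 0.13 between the times (adjusted p = 0.0151). The call against DMSO was lost without the first DMSO sample of 24 h (0.27, adjusted p = 0.157) or without the third WS1442 sample (0.30, adjusted p = 0.0544), and that of the change in effect without the first DMSO sample of either time (adjusted p = 0.0838 for 6 h and 0.0803 for 24 h).

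Runx1 and Lyl1, the remaining progenitor factors, were not called against DMSO. The brightest Runx1 probe read 8.64 and 8.37 with DMSO at 24 h, 8.74, 8.83 and 8.84 with WS1442, and 8.83, 8.56 and 8.70 with MeOH eluate. WS1442 lay above DMSO by 0.30 ± 0.12 without overlap (adjusted p = 0.0864). The other 2 Runx1 probes gave -0.07 and -0.32 for the same comparison, neither called, so that the probes disagreed in sign. Lyl1 read 5.69 and 6.21 with DMSO at 24 h, 6.34, 6.06 and 6.54 with WS1442, and 6.28, 5.95 and 6.50 with MeOH eluate. Its groups overlapped, and the intervals ran from -0.04 to 0.78 for WS1442 and from -0.11 to 0.71 for MeOH eluate.

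Gata1, the master factor of the erythroid line, read 6.10 and 6.39 with DMSO at 24 h. With WS1442 it read 5.85, 5.95 and 5.84, and with MeOH eluate 6.00, 5.13 and 4.80. Every treated sample lay below both DMSO samples, while the treatments overlapped each other. The differences were -0.37 ± 0.32 for WS1442 (adjusted p = 0.457) and -0.93 ± 0.32 for MeOH eluate (adjusted p = 0.0632). The latter was called without the first MeOH eluate sample (-1.28, adjusted p = 0.00898), in a fit of the 24 h arrays alone (adjusted p = 0.0494), under scaling to the 75th percentile (-0.97, adjusted p = 0.0445), with normexp (-0.37, adjusted p = 0.0243) and without the first WS1442 sample of 6 h (adjusted p = 0.0459). At 6 h Gata1 had been low in all groups, between 4.08 and 5.09. With DMSO the level was 1.71 ± 0.36 higher at 24 h than at 6 h (adjusted p = 0.00148), across slides, and 0.69 with normexp. Klf1, which switches on red cell genes with GATA1, read 6.74 and 7.32 with DMSO at 24 h, 6.83, 6.84 and 6.84 with WS1442, and 6.76, 6.63 and 6.87 with MeOH eluate. These ranges overlapped in both comparisons, with intervals from -0.68 to 0.29 and from -0.75 to 0.21.

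None of the embryonic globins, products of primitive red cells, was called lower than DMSO. Of the tested probes, 18.1% were dimmer than that of Hbb-bh1 and 22.3% dimmer than that of Hba-x. A fall of these 2 genes could therefore hardly have been read. Hbb-bh1 read 4.42 and 3.79 with DMSO at 24 h, 3.82, 3.98 and 4.21 with WS1442, and 5.66, 6.31 and 4.70 with MeOH eluate. The MeOH eluate samples were the highest and the most spread. The difference from DMSO was 1.45 ± 0.38 (adjusted p = 0.0150) and from WS1442 1.55 ± 0.34 (adjusted p = 0.00758). The probe was well above background on 1 of 2 DMSO arrays and on all 6 treated arrays at 24 h. With normexp background correction it was 0.54 against DMSO (adjusted p = 0.0105) and 0.55 against WS1442 (adjusted p = 0.00701). Its call against DMSO was lost without the second DMSO sample (1.13, adjusted p = 0.119) or the second MeOH eluate sample (1.07, adjusted p = 0.0561). The change of the MeOH eluate effect between the times was not called (1.64 ± 0.53, adjusted p = 0.0827). At 6 h the samples had lain between 3.87 and 4.77 in all groups. The other Hbb-bh1 probe, designed on a cDNA clone, was well above background on 0 of 16 arrays, so that it gave no second reading of this rise.

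Hbb-y, the other early beta-like globin, read 6.41 and 6.52 with DMSO, 6.69, 6.45 and 6.98 with WS1442, and 6.71, 6.58 and 6.38 with MeOH eluate at 24 h. At 6 h it read 6.40 and 6.58 with DMSO and 7.01, 6.62 and 7.10 with MeOH eluate, which did not overlap. That difference of 0.42 ± 0.18 was not called (adjusted p = 0.136). Hba-x, the alpha-like partner, read 5.06 and 4.90 with DMSO, 4.60, 4.58 and 5.06 with WS1442, and 5.25, 5.14 and 4.95 with MeOH eluate at 24 h, and the intervals of the differences were -0.76 to 0.30 and -0.39 to 0.67. Of the 3 embryonic globins, 1 was thus called, in 1 of 4 comparisons with DMSO.

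Set directly against each other, the treatments differed in 1 of the 10 genes at 6 h, Lmo2, where 12.1% of all genes did, and in 4 at 24 h, where 14.3% did. The latter were Tal1, Lmo2 and Gata2, lower with MeOH eluate, and Hbb-bh1, higher with MeOH eluate. The effect of WS1442 changed between the times in 2 genes, Tal1 and Gata2 (12.2% of all genes), and that of MeOH eluate in 1, Tal1 (7.46%). In the DMSO samples alone, 5 of 10 genes differed between 6 h and 24 h, where 42.7% of all genes did. Tal1, Lmo2, Runx1 and Gata1 were higher at 24 h, and Gata2 was lower (-0.33), and lost its call under scaling to the 75th percentile (-0.11, adjusted p = 0.303). At the brightest probes, the difference of Lmo2 was 1.93 ± 0.16. This comparison cannot be told apart from the slide. At the limits of the study, 1 and 2 genes differed between the treatments at 6 h and 24 h (1.19% and 0.471% of all genes), 1 and 3 changed in the effect of WS1442 and MeOH eluate (1.99% and 3.31%), and 2 differed in DMSO between the times (11.4%).

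Arrays lay in 2 rows on each slide. Within the rows, Tal1 differed from DMSO at 24 h by -0.997 and -1.39 with WS1442, and by -1.83 and -1.82 with MeOH eluate. Lmo2 differed by -1.47 and -1.45 with MeOH eluate. Hbb-bh1 with MeOH eluate gave 1.39 and 1.88, and Gata2 with WS1442 0.33 and 0.41. In these 5 cases the treated samples did not overlap the DMSO samples, so that the sign within a row was fixed beforehand. Each row value rests on the DMSO array of that row alone, and the rows are no separate test.

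The genes around the set were read from lists drawn up from general knowledge. For these lists, fell and rose mean called lower or higher than DMSO at the same time. Among 17 genes of blood and endothelial precursors, 5 fell and 0 rose with MeOH eluate at 24 h, while 8.47% of all genes fell and 9.36% rose. With WS1442, 3 of the 17 fell and 0 rose, while 12.1% of all genes fell and 12.4% rose. The list medians were -0.15 and -0.03, beside 0.01 and 0.02 over all probes. Etv2, the factor that starts the blood and vessel lineage upstream of Tal1, read between 11.13 and 11.24 with DMSO at 24 h, between 10.10 and 10.19 with WS1442 and between 8.46 and 8.85 with MeOH eluate. It was 2.06-fold lower with WS1442 (adjusted p = 1.26e-05) and 5.72-fold lower with MeOH eluate (adjusted p = 4.11e-09). Plvap, a protein of endothelial cells, differed by -1.05 and -1.52, lower in both, (adjusted p = 0.00110 and 4.81e-05). Cdh5, the cadherin of endothelial junctions, was lower with MeOH eluate (adjusted p = 0.00153), where it was not well above background on any of the 3 arrays. The fold was 2.08 with those readings raised to the lowest signal well above background, which is no strict limit. Cdh5 is among the 5 that fell. It passed the filter only through the DMSO and WS1442 samples of 24 h, so that its call with MeOH eluate could hardly have been a rise. Kdr, Cd34 and Pecam1, general genes of this lineage, were not called at 24 h with either treatment. Egfl7, a protein secreted by endothelial cells, was lower at 24 h (-0.59 and -0.47, adjusted p = 2.98e-05 and 0.000107) and had been higher at 6 h (0.26 and 0.24, adjusted p = 0.0330 and 0.0179).

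**Figure D4:**
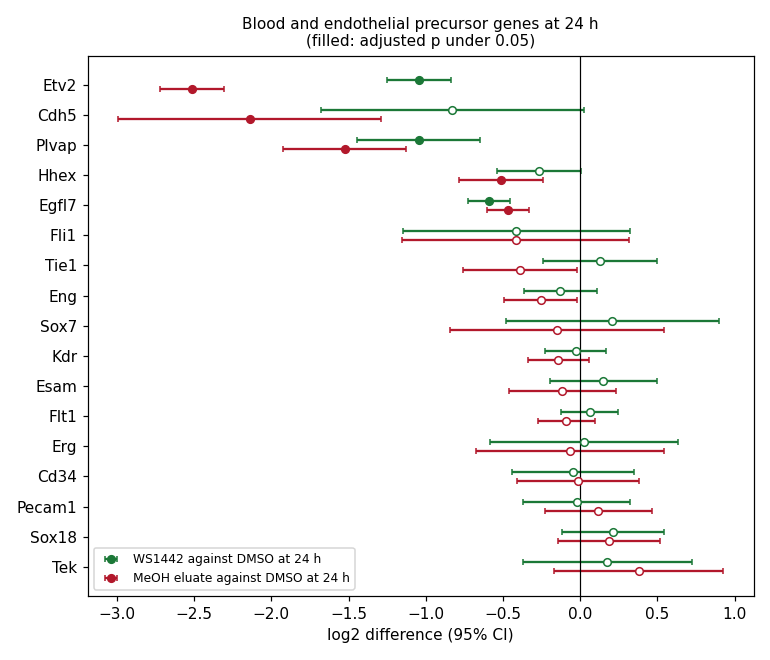
Log2 difference from DMSO at 24 h (x axis, 95% confidence interval) for 17 genes of blood and endothelial precursors (y axis), with WS1442 in green and MeOH eluate in red, filled where adjusted p was under 0.05. Etv2 and Plvap lay more than 1 below DMSO with both treatments, and most other genes lay near 0.

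Of 16 partners and cofactors of the GATA, TAL1 and RUNX factors that were tested, 3 rose and 2 fell with WS1442 at 24 h, and 2 rose and 1 fell with MeOH eluate. These 5 and 3 of 16 stand beside 24.5% and 17.8% of all genes. Zfpm1, which encodes the GATA1 partner FOG1, differed by -0.34 with WS1442 and -0.94 with MeOH eluate, a fall in both (adjusted p = 0.000181 and 2.65e-08). Sox6, a factor of red cell maturation that is also active in other tissues, rose by 0.62 and 0.88 (adjusted p = 0.00208 and 0.000138). Ahsp, the chaperone of alpha globin, was lower with MeOH eluate at 24 h (adjusted p = 0.000589), where no array was well above background. The fold was 2.02 with those readings raised to the lowest signal well above background, which is no strict limit. Ahsp too passed the filter only through the DMSO and WS1442 samples of 24 h, so that this call could hardly have been a rise. Among the 20 tested genes of red cell membrane and maturation, to which Ahsp belongs, 3 fell and 0 rose with MeOH eluate at 24 h, and 2 fell and 3 rose with WS1442, against the same shares of all genes.

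Heme synthesis moved in both directions. Of 11 genes tested, 3 rose and 3 fell with WS1442 at 24 h, and 2 rose and 2 fell with MeOH eluate, so that 6 and 4 of 11 stand beside 24.5% and 17.8% of all genes. Alas1, the housekeeping first enzyme, rose by 0.61 and 0.22 (adjusted p = 7.55e-06 and 0.00829), and Slc25a38, the glycine carrier of erythroid mitochondria, by 0.39 and 0.40 (adjusted p = 0.00110 and 0.000898). Cpox, an enzyme of a later step, fell with both treatments. Of 9 fetal and adult globin genes, 5 had a probe named here and 3 could be tested. At 24 h limma called 0 of the 3 with either treatment. At an unadjusted p under 0.05 it was 1 in each comparison, and the methods' t-test gave 0 at that limit. The share of all genes at that unadjusted limit was not computed. With normexp, with scaling to the 75th percentile or with the slide row as a block, 1 of the 3 was called in each comparison. In the list of early white blood cells, platelets and progenitor surface, 1 of 14 tested genes rose and 1 fell with each treatment at 24 h. Kit, the receptor of early blood progenitors and also of germ cells, rose by 0.40 and 0.41 at 24 h (adjusted p = 0.0125 and 0.0144). Gp1bb, a platelet surface protein, was lower by contrast (-0.23 and -0.38, adjusted p = 0.0203 and 0.00106).

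Markers of other cell types moved at the same time, and their counts at 24 h stand beside 12.4% of all genes that rose and 12.1% that fell with WS1442, and 9.36% and 8.47% with MeOH eluate. In the primitive streak and mesoderm list, 4 of 8 genes fell and 0 rose with MeOH eluate at 24 h, and 3 fell and 0 rose with WS1442. Its summed intensity was 4581 to 4627 units with DMSO, 3537 to 3752 with WS1442 and 2851 to 3228 with MeOH eluate. Mixl1, a factor of the primitive streak, was lower with both, with differences of -0.47 and -1.20 at 24 h and -0.99 and -2.39 at 6 h. In the endoderm list, 3 of 6 tested genes fell with each treatment at 24 h and 1 rose with WS1442, and the sum was 3196 to 3377 units with DMSO, 2635 to 3016 with WS1442 and 1655 to 2041 with MeOH eluate. Of its markers, Ttr and Apoa1 were well above background on no array. Among 11 heart genes, 4 fell and 0 rose with MeOH eluate and 3 fell and 1 rose with WS1442, at 24 h. At 6 h, 3 heart genes rose and 0 fell with MeOH eluate (8.42% and 8.45% of all genes), and 1 rose and 0 fell with WS1442 (3.81% and 1.29%). Myl7, the atrial myosin light chain, was higher at 6 h, by 1.05 with MeOH eluate and 0.61 with WS1442 (adjusted p = 0.000510 and 0.0414), and lower at 24 h, with differences of -2.02 and -1.17. The summed intensity of the heart list at 24 h was 15530 to 15742 units with DMSO, 13921 to 16707 with WS1442 and 13875 to 15569 with MeOH eluate. Neuroectoderm genes ran the other way at 24 h with WS1442, where 3 of 6 rose and 0 fell, while 2 rose and 1 fell with MeOH eluate. Their sum was 6707 to 6726 units with DMSO, 8000 to 8416 with WS1442 and 7856 to 8628 with MeOH eluate. In the pluripotency list, 1 of 9 genes rose and 3 fell with WS1442 at 24 h, and 0 rose and 1 fell with MeOH eluate, with sums of 16794 to 17633, 15501 to 16430 and 16523 to 18316 units. The part of these cells in the Tal1 and Lmo2 values was not tested.

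Levels of 14938 genes were also set beside 3 members, 1 of each role, across the 16 arrays after the mean of each time point was taken off. The genes most like Tal1 were Frat2, Psat1, Capn5, Glis1 and Impdh2, with Pearson's r from 0.94 to 0.96. Those most like Gata1 were Foxo6, Rpl11, Epb41l4aos, Ccnl1 and Mxi1 (0.81 to 0.83), and those most like Hbb-bh1 were Tgtp2, S100a6, Lypd6, Gbp10 and Malsu1 (0.83 to 0.86). Tal1 and Lmo2 gave 0.62 with each other, Tal1 and Gata1 0.58, and Tal1 and Hbb-bh1 -0.49. Arrays of a treatment share that treatment, and these values describe the 16 arrays only.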

How the data were processed

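The authors labelled RNA with Cy3 and scanned 1-colour Agilent arrays with Feature Extraction 11.5.1.1. As deposited, intensities are background corrected within an array, and a further deposited table holds linear intensities after quantile normalization by the authors. Starting from the scanner values, spots marked non-uniform were set missing, the log2 intensities of the 16 arrays were quantile normalized with limma 3.58.1 (R 4.3.3), and a probe entered the fit if some group had it well above background in all of its samples (36729 probes, 95 missing values). A model with 6 group means and a variance prior depending on signal was fitted to all kept probes, with Benjamini-Hochberg adjustment over all of them. The deposited table was an alternative, as were scaling, background correction, filter, blocks, the t-test of the study's methods (the methods' t-test) and each sample left out. The methods name a t-test for pairwise comparisons in general. For the arrays they refer the statistics to the provider and name no test, so that this t-test may not be the one behind the study's array p-values. The study's limits were a 2-fold change with unadjusted p under 0.05. The fitting step was tested on simulated data. No count stands behind an array signal, so that the number of arrays limits the precision. Probe names came from the scanner files or, through accessions, from RefSeq (GRCm38.p6); 17778 probes matched no entry. Named beside the members are, from each pathway list, up to 4 genes and, from each marker list, up to 2, by smallest adjusted p against DMSO; Kdr, Cd34 and Pecam1 were chosen after their values were seen. Some genes that this rule names are not reported here. The members and lists were chosen with earlier results of these data known.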

Additional observations from a re-analysis of the deposited data

Results flagged for a closer look

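The effect of a treatment differed between 6 h and 24 h in 2 of the member genes, by limma's test of the difference itself. For WS1442 these were Gata2 and Tal1, where 12.2% of all genes tested differed. For MeOH eluate it was Tal1 alone, where 7.46% of all genes did. Whether the member counts exceed these shares was not tested. For Gata2 the effect of WS1442 was higher by 0.55 (log2) at 24 h than at 6 h. Without the first DMSO sample of either time this change was 0.47, and its call was lost. For Tal1 the effect at 24 h was lower than at 6 h, at probe 1 by -1.07 for WS1442 and -1.95 for MeOH eluate, and at probe 2 by -3.05 and -3.42. The WS1442 change at probe 1 was -0.88 without the first DMSO sample of 24 h, and its call was lost. The values of probe 2 rest on DMSO samples of 6 h that were not well above background, so that they are not sizes of a change. Groups of 2 or 3 samples were too small to be searched for outlying samples.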

How the results depend on the processing

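No called difference changed direction under any alternative. The methods' t-test after Benjamini-Hochberg adjustment called 0 of the 10 genes in each comparison with DMSO, 0 for MeOH eluate against WS1442 at 6 h, 1 at 24 h (Lmo2) and 0 for DMSO at 24 h against 6 h. Over all probes it called 1 of 36719 with WS1442 and 5 of 36719 with MeOH eluate at 6 h. At 24 h these were 7 of 36727 and 203 of 36725. Between the treatments it called 6 and 245 of 36726, and 23 of 36719 in DMSO between the times. With so few calls over all probes, 0 of 10 tells little about these genes. At the study's limits the t-test called 1 gene with WS1442 and 2 with MeOH eluate at 24 h, and 0 at 6 h. The share of all genes at these limits was not computed for that test. With limma at the study's limits, 0 genes were called with MeOH eluate at 6 h, 1 with WS1442 at 24 h, 2 for MeOH eluate against WS1442 at 24 h, 1 for the change of the WS1442 effect, 3 for that of the MeOH eluate effect and 2 for DMSO between the times. With normexp background correction, 4 genes were called with WS1442 at 24 h and 2 for the change of the MeOH eluate effect. Beside them, 8363 and 2667 of all 36729 probes were called. Leaving out 1 sample at a time gave 1 to 2 genes with WS1442 at 24 h, 2 to 4 with MeOH eluate at 24 h, 1 to 2 for the treatments against each other at 6 h and 4 to 5 at 24 h, 0 to 2 for the change of the WS1442 effect, 1 to 2 for that of the MeOH eluate effect, and 4 to 6 for DMSO between the times. The share of all probes called was not computed for the fits without a sample. The gene gained at 6 h, without the first WS1442 sample, was Hbb-y (0.53, adjusted p = 0.0481). Those gained for the MeOH eluate effect were Gata1 without the first MeOH eluate sample of 24 h and Hbb-bh1 without the third. The calls of Tal1 at probe 1 and of Lmo2 against DMSO stayed whichever sample was left out. At probe 2 of Tal1, the 6 h call held in 20 of 25 settings with WS1442 and in 17 of 25 with MeOH eluate. The causes were not tested.

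The labels do not say whether replicate numbers pair the samples, and the correlations that follow cannot exclude it. Deviations from the group means of same-numbered samples of a time point correlated between -0.22 and 0.28 (median -0.06, 14 pairs). With the replicate number as a block, 2 genes were called with WS1442 and 3 with MeOH eluate at 24 h, and 0 and 1 at 6 h. No call of a member changed. Over all probes that fit called 7022 of 36727 and 5199 of 36725 at 24 h, and 888 and 4608 of 36719 at 6 h. The deposited table moved members by at most 0.03, except 2 Runx1 probes that share 1 entry in it. A fit within a time point was not possible for contrasts between times, and the methods' t-test was not run for the changes in effect.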
